A study of Mus musculus with 12 samples.

Results

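Reelin is a large secreted glycoprotein, and the genes described here are Reln, which encodes it, and 6 genes of its intracellular signalling route: the receptor genes Vldlr and Lrp8, the adaptor gene Dab1, the kinase gene Fyn and the adaptor genes Crk and Crkl. They were taken by gene symbol from a table of read counts, 7 of 23079 genes, and the set was chosen by the level of Reln in these data, together with what is known of its pathway. All 7 passed the filter on low counts that left 14732 genes for testing. The choice was made with earlier results of these data known: Reln had been seen to be higher in Hoxa5tdTomato than in the reference. That comparison is therefore given for these genes as a description, with no p-value, and a call of Reln in it is no test.

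The libraries came from sorted pontine nucleus neurons of CD-1 mouse embryos at embryonic stage E18.5. The pontine nucleus relays signals from the cerebral cortex to the cerebellum. The reference, Math1tdTomato (n = 6), carried a tdTomato label through Math1. This gene, also called Atoh1, encodes a transcription factor of rhombic lip progenitors, which give rise to these neurons. The columns of 3 of these libraries name creErt2 and those of the other 3 name tdT. Hoxa5tdTomato (n = 3) carried the label through Hoxa5, a Hox gene active in the posterior hindbrain and spinal cord, and its columns name Hoxa5 and cre. In the libraries labelled Math1Hoxa5-IRES-GFP (n = 3), the columns name Math1 with a Cag, lsl and Hoxa5 allele. The labels give no further allele, no time of Cre induction and no animal for any library, so p-values measure only the spread between these libraries, which may be technical.

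Words of the column names were used to put the Hoxa5tdTomato libraries with the creErt2 references (set 1) and the Math1Hoxa5-IRES-GFP libraries with the tdT references (set 2); no label states this pairing. Libraries of set 1 held 9973484 to 13302076 counts and those of set 2 held 22355961 to 29820776, so a difference between the sets and one of depth cannot be told apart. Hoxa5 itself was at 119 to 222 CPM, its reads as a share of the scaled library total, in Hoxa5tdTomato and at 4.35 to 32.2 CPM in the references. It was at 9.73, 16.8 and 82.0 CPM in the libraries labelled Math1Hoxa5-IRES-GFP, so only 1 of the 3, replicate 3, lay above all references (log2 fold change 1.35, adjusted p = 0.255 in edgeR's quasi-likelihood test). Without that replicate the Hoxa5 change was -0.098 ± 0.54 (SE, adjusted p = 0.956, edgeR), and every direction given below for that group rests on its label. That replicate also stood apart: 13074 genes had a count there against 14779 to 16290 in the other 11 libraries, and its log2 CPM correlated with the other replicates of its group at an r of 0.861 and 0.868 across genes, against 0.914 between those.

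Of the markers of pontine neurons, Barhl1 was at 105 to 345 CPM, Slc17a6, the glutamate transporter VGLUT2, at 286 to 506 CPM and Nfib at 2764 to 6289 CPM over all 12 libraries. Slc17a7 (VGLUT1) was at most 1.08 CPM, and Neurod1 was at 0 in all references. The 13 markers summed to 4122 to 4842 CPM in Hoxa5tdTomato, 6979 to 9987 CPM in the references and 5960 to 10270 CPM in Math1Hoxa5-IRES-GFP. Nfib, at the level above, was a large part of these sums. Of 12 markers tested, 4 were called lower and 0 higher in Hoxa5tdTomato than in the reference, where 1.73% of all genes were called. Against the creErt2 references 1 was called lower, where 0.557% of all genes were called.

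Secreted Reelin binds the lipoprotein receptors VLDLR and ApoER2, the product of Lrp8, on migrating neurons. The receptors bring the intracellular adaptor DAB1 to Src family kinases such as FYN, which phosphorylate it, and phosphorylated DAB1 then recruits CRK and CRKL and is marked for degradation. The pathway is best known for placing neurons in the layers of the cerebral cortex and in the cerebellum, and mouse mutants of Reln, of Dab1 and of both receptors together share a phenotype of misplaced neurons. Reln is also made by neurons of the hindbrain and by cerebellar granule neurons.

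Reln lay above all references in every library of both conditions and Dab1 in 5 of these, with the values below. In Math1Hoxa5-IRES-GFP replicate 3, Dab1 lay below all references. This pattern was not counted over all genes, and Reln was chosen for its level in Hoxa5tdTomato. For scale, 14.1% of all genes had every Hoxa5tdTomato library on one side of all references. The bases just before the start sites of Reln and Dab1 are shown as a description. They come from the RefSeq promoter table of build GRCm38.p6, are written 5′ to 3′ on the strand of the gene, and have each CG dinucleotide in capitals.
Reln, chr5:22344706-22344955, minus strand: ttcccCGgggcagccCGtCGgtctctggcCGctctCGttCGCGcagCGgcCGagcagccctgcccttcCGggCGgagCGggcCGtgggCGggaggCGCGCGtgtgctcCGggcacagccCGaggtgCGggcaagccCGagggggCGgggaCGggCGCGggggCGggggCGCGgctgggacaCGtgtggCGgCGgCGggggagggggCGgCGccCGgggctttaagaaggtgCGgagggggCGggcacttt
Dab1, downstream start, chr4:104367288-104367537, plus strand: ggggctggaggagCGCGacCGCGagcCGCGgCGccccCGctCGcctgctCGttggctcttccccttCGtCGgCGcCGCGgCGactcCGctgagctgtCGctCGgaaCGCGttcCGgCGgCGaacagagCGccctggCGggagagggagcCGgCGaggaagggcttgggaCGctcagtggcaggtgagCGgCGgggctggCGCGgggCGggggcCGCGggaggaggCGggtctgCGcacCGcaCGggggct
Dab1, upstream start, chr4:103619250-103619499, plus strand: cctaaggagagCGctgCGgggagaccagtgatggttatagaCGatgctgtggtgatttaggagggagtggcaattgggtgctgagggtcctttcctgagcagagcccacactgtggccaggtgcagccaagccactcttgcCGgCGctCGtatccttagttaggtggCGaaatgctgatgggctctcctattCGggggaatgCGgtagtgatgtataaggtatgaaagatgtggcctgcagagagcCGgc
The Reln window of 250 bases held 37 CG dinucleotides and 80.0% G or C, more CG than 97.8% of the 32851 windows of the same length in the table, whose median was 6. Before the downstream Dab1 start there were 40 CG dinucleotides, and before the upstream start there were 10. On both strands, the Reln window held the letters GGGCGG 6 times and CACGTG 1 time, and neither TAATTA nor TGATNNAT. The downstream Dab1 window held GGGCGG 1 time and the upstream one TGATNNAT 1 time. Of all windows, 32.7% held GGGCGG, 6.02% CACGTG, 4.84% TAATTA and 7.68% TGATNNAT. These matches describe letters in these windows; the libraries measured no binding or methylation there, nor which start was used.

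Reln spans chr5:21884454-22344705 on the minus strand (GRCm38.p6). Its level was 304, 334 and 267 CPM in the creErt2 references and 721, 773 and 724 CPM in Hoxa5tdTomato. In set 2 it was 310, 405 and 420 CPM in the tdT references and 1016, 952 and 655 CPM in Math1Hoxa5-IRES-GFP. Each library of both conditions lay above all 6 references, and within Math1Hoxa5-IRES-GFP replicate 3 was the lowest. The counts behind these levels ran from 2944 to 21826 reads per library.

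**Figure D1:**
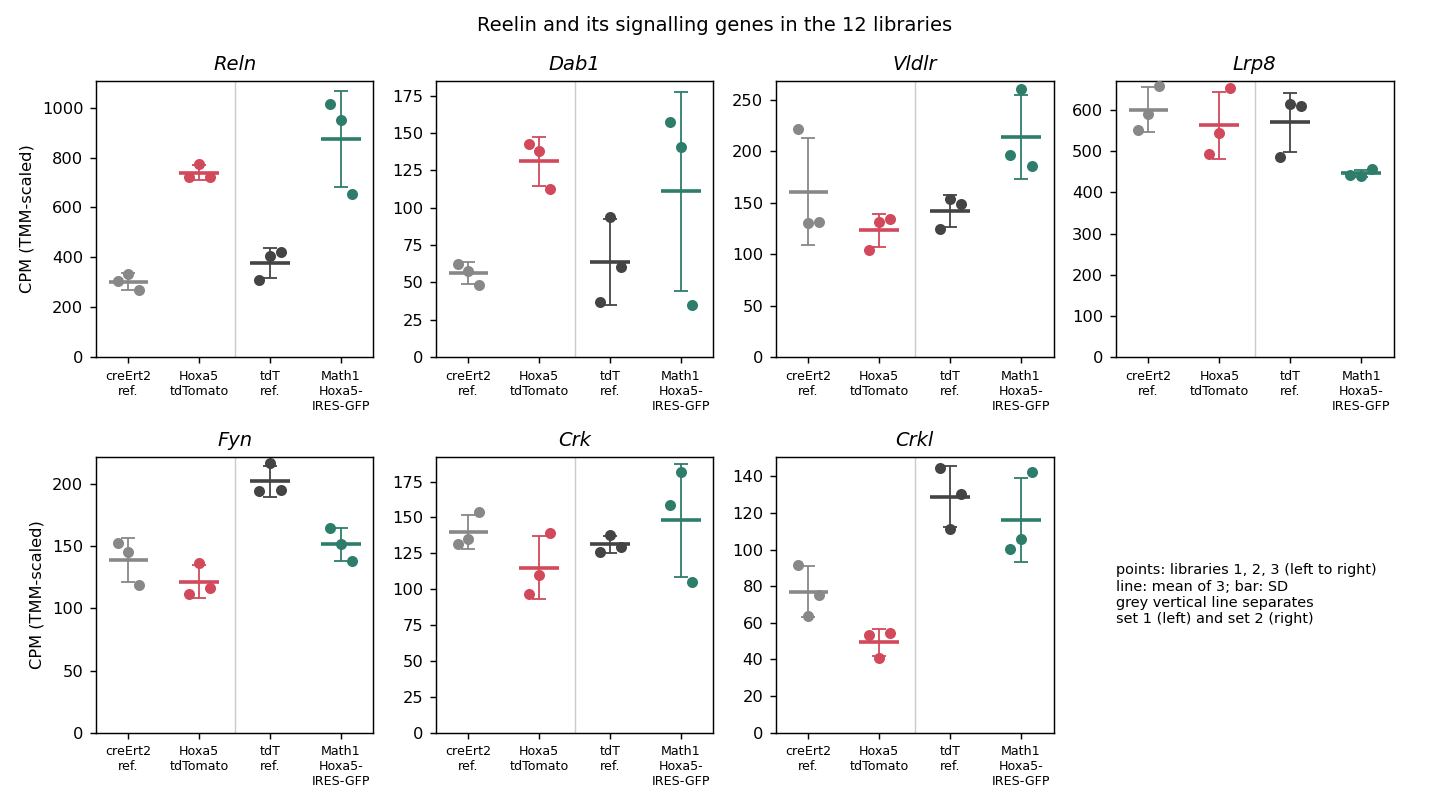
Levels of the 7 genes in CPM (vertical axes, from 0) in each of the 12 libraries. Points are libraries 1 to 3 of each group from left to right, the line is their mean and the bar the SD (n = 3). Reln lay between 267 and 420 CPM in the 6 references and between 655 and 1016 CPM in the 6 other libraries. Crkl separated the creErt2 from the tdT references, as did 24.6% of all genes.

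In Math1Hoxa5-IRES-GFP, Reln was higher than in the reference by a log2 fold change of 1.36 ± 0.16 (SE), 2.57-fold, with an adjusted p of 0.000177 in edgeR's quasi-likelihood test over all genes. It was the only member called, 1 of 7, where 1.84% of all genes tested were called. Against the tdT references of its own set the change was 1.21 ± 0.17 (adjusted p = 0.00233, edgeR), and without replicate 3 the changes were 1.53 against all references and 1.38 within the set. All 3 libraries lay on one side of all 6 references for 6.37% of the genes tested, and 0.862% of them were called within set 2. The references also served the Hoxa5tdTomato comparison by which Reln was chosen, so these p-values are not independent of that choice.

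In Hoxa5tdTomato, Reln stood at 739 ± 29.4 CPM (SD, n = 3), against 302 ± 34 CPM in the creErt2 references (SD, n = 3). The log2 fold change was 1.12 ± 0.16 against all references and 1.29 ± 0.17 within the set, a description since this contrast chose the gene. For scale, 14.1% of all genes had Hoxa5tdTomato on one side of all references and 25.3% on one side of the creErt2 references; nothing is read from this for Reln, which was chosen for that difference.

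The change of Reln within set 1 exceeded that within set 2 by 0.08 on the log2 scale (95% interval -0.41 to 0.58). This difference was not resolved (edgeR adjusted p = 0.954). Of 14732 genes 0 were called for such a difference, with 1181 at an unadjusted p under 0.05. Hoxa5tdTomato and Math1Hoxa5-IRES-GFP libraries overlapped in Reln, at -0.24 ± 0.19 for the first minus the second (adjusted p = 0.489, edgeR), a contrast that also crosses the sets.

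An antisense gene, Gm10475, shares 246 of the 23738 exon bases of Reln (1.04%). The strand setting of the counting is not given in the sources used here, so reads from that stretch cannot be assigned.

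Markers of other cells that the sort could hold were summed per library beside Reln. The 8 markers of Cajal-Retzius cells, which make Reelin in the cerebral cortex, summed to 79.5 to 91.3 CPM in Hoxa5tdTomato, 125 to 381 CPM in the references and 151 to 314 CPM in Math1Hoxa5-IRES-GFP. Ebf3 and Lhx1, which are not limited to those cells, made up most of it. Trp73, their defining transcription factor, was at 0 in all Hoxa5tdTomato libraries and at most 0.355 CPM in any library.

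Endothelial markers, such as Cldn5 of tight junctions, moved with Hoxa5tdTomato: the 12 genes summed to 120 to 209 CPM there, 3.20 to 29.6 CPM in the references and 0.803 to 47.4 CPM in Math1Hoxa5-IRES-GFP. The 10 pericyte and mural cell markers, such as Rgs5, summed to 112 to 239 CPM in Hoxa5tdTomato, 3.42 to 27.2 CPM in the references and 5.57 to 64.2 CPM in Math1Hoxa5-IRES-GFP. The 8 meningeal markers summed to 11.6 to 17.4 CPM, 0.943 to 4.03 CPM and 0 to 7.69 CPM in the same order. Their part in the Reln level was not tested. In these sorted pools, fewer cells of a type and less RNA per cell cannot be told apart.

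GABAergic and glycinergic markers overlapped between the groups, with sums of 224 to 305 CPM in Hoxa5tdTomato, 245 to 421 CPM in the references and 235 to 502 CPM in Math1Hoxa5-IRES-GFP. Gad1, an enzyme of GABA synthesis, was at 0 in all Math1Hoxa5-IRES-GFP libraries. Gad2, another such enzyme, was at 26.1 ± 8.86 RPKM (SD), the CPM per kilobase of gene length, over all libraries. Cerebellar granule neuron markers, 12 genes that include Barhl1, summed to 2221 to 2477 CPM, 2345 to 3349 CPM and 2738 to 3732 CPM in that order, and Gabra6 was at 0 in all libraries. Astrocyte and radial glia markers overlapped too, at 747 to 1080 CPM, 720 to 1010 CPM and 610 to 1061 CPM.

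Oligodendrocyte lineage markers were at 83.1 to 104 CPM in Hoxa5tdTomato, 43.0 to 86.4 CPM in the references and 44.9 to 80.0 CPM in Math1Hoxa5-IRES-GFP. Microglial markers were at 7.88 to 64.7 CPM, 0.321 to 16.2 CPM and 0 to 6.07 CPM. The most abundant genes of these lists per length, over all libraries, were Sst (61.7 RPKM), Zic1 (337 RPKM), Fabp7 (361 RPKM), Mbp (5.27 RPKM) and Aif1 (3.02 RPKM) in the order given. In dividing cell markers (47.5 to 83.2 CPM over all libraries) and stress genes (575 to 804 CPM), no group stood apart from all others. In dividing cell markers the creErt2 references (at most 49.2 CPM) lay below both groups of set 2 (at least 51.6 CPM). In stress genes both groups of set 1 (at most 665 CPM) lay below Math1Hoxa5-IRES-GFP (at least 682 CPM).

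Lrp8, which encodes the receptor ApoER2, spans chr4:107802200-107876840. It had the highest level per length of the members in both reference groups and in Hoxa5tdTomato, at 56.5 ± 5.75 RPKM in the 6 references (SD), above 94.6% of the tested genes. RPKM is the CPM per kilobase of the deposited gene length. Libraries labelled Math1Hoxa5-IRES-GFP were at 442, 441 and 457 CPM. All 6 references were higher, with a lowest, median and highest level of 488, 601 and 660 CPM. These groups did not overlap for 6.37% of all genes. The log2 fold change was -0.39 ± 0.13 (adjusted p = 0.145) and -0.35 ± 0.14 within the set (adjusted p = 0.280, both edgeR), so neither passed the threshold. Hoxa5tdTomato, at 494, 544 and 653 CPM, overlapped the references, at -0.06 ± 0.13 (SE, a description).

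Vldlr, the gene of the other receptor, lies at chr19:27216480-27254231. In the references its level was 221, 130 and 131 CPM (creErt2) and 125, 154 and 148 CPM (tdT), with creErt2 reference 1 apart from the other five. In the libraries labelled Math1Hoxa5-IRES-GFP it was 196, 261 and 185 CPM, above all tdT references, and 12.5% of all genes did not overlap in that comparison. The change was 0.50 ± 0.19 against all references (adjusted p = 0.187) and 0.59 ± 0.21 within the set (adjusted p = 0.246, both edgeR), past the threshold in neither. Hoxa5tdTomato was at 104, 131 and 134 CPM, or -0.30 ± 0.20 (SE) against all references, as a description.

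Vldlr was lower in all Hoxa5tdTomato libraries than in any library labelled Math1Hoxa5-IRES-GFP, and 27.7% of all genes did not overlap between these groups. The log2 difference of -0.80 ± 0.22 had an adjusted p of 0.0545 in edgeR, just over the threshold. The difference of the within-set changes was -0.98 ± 0.30 with an adjusted p of 0.537 (edgeR), where 0 of 14732 genes were called.

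The level of Lrp8 relative to Vldlr, as a ratio of RPKM, was 1.803, 1.36 and 1.98 in the libraries labelled Math1Hoxa5-IRES-GFP. It was 3.13, 3.21 and 3.29 in the tdT references and 3.79, 3.32 and 3.90 in Hoxa5tdTomato. In the creErt2 references it was 2.00, 3.63 and 4.03, so the lowest reference and the highest Math1Hoxa5-IRES-GFP library were close. This ratio was chosen after the values were seen and was not tested.

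**Figure D2:**
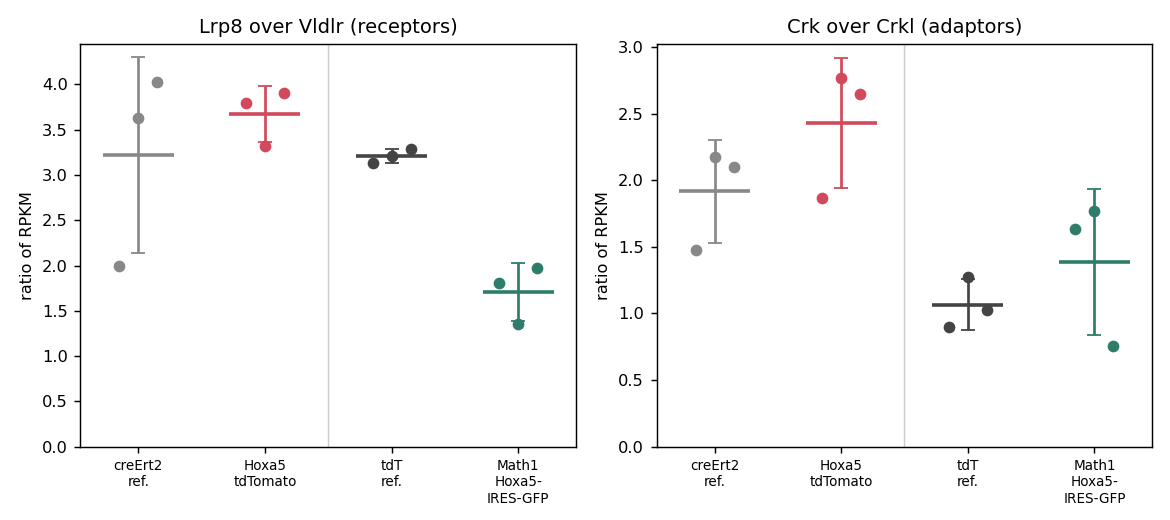
Ratios of RPKM (vertical axes, from 0) of the 2 receptor genes (left) and the 2 CRK family adaptor genes (right) in each library, with the mean as a line and the SD as a bar (n = 3). The Lrp8 over Vldlr ratio was 1.36 to 1.98 in Math1Hoxa5-IRES-GFP and 2.00 to 4.03 in the references, and Crk over Crkl was lower in the tdT references (0.899 to 1.28) than in the creErt2 references (1.47 to 2.18).

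Dab1, at chr4:103619500-104744844, encodes the adaptor that the receptors engage. It had the lowest level per length of the members in the references, at 9.72 ± 3.11 RPKM (SD, n = 6). In set 1 it was 62.3, 57.9 and 48.1 CPM in the creErt2 references and 143, 138 and 112 CPM in Hoxa5tdTomato. These did not overlap, as was so for 25.3% of all genes. In set 2 Dab1 was 37.2, 94.1 and 60.1 CPM in the tdT references and 158, 141 and 34.8 CPM in the libraries labelled Math1Hoxa5-IRES-GFP. Replicates 1 and 2 of the latter were above all references and replicate 3 was below all of them.

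For Math1Hoxa5-IRES-GFP against the reference, the Dab1 change was 0.89 ± 0.34 with an adjusted p of 0.190 (edgeR), which missed the threshold. Without replicate 3 it was 1.32 ± 0.24 with an adjusted p of 0.00478, and within the set 1.23 ± 0.27 with an adjusted p of 0.0177 (edgeR, 2 libraries against 3). With all replicates the value within the set was 0.80 ± 0.41 (adjusted p = 0.417). The call of Dab1 therefore turned on this library. In Hoxa5tdTomato the change was 1.13 ± 0.34 against all references and 1.22 ± 0.42 within the set, as a description.

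Over the 12 libraries the log2 CPM of Reln and Dab1 had a Pearson r of 0.74. After the mean of each group was subtracted, the r was 0.897. Without Math1Hoxa5-IRES-GFP replicate 3 the r was 0.932 over the other 11 libraries and 0.749 for the deviations from the group means. These are descriptions over libraries that share groups, sets and depth. The deviation shared by the pair was widest in Math1Hoxa5-IRES-GFP, where the replicate lowest in Reln was also lowest in Dab1.

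**Figure D3:**
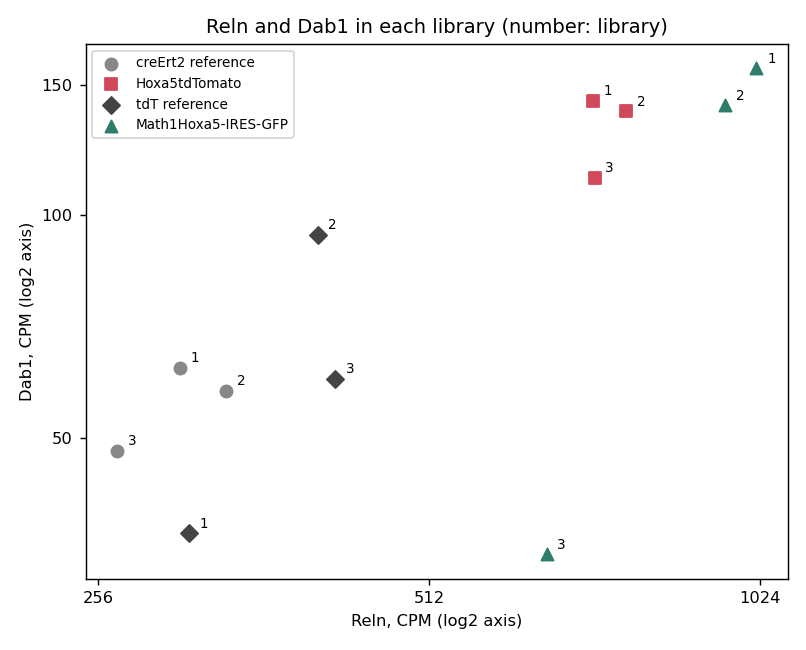
Reln (horizontal axis) and Dab1 (vertical axis) in CPM on log2 axes, 1 point for each of the 12 libraries with its number. The 3 Hoxa5tdTomato libraries and Math1Hoxa5-IRES-GFP replicates 1 and 2 lay at 721 to 1016 CPM of Reln and 112 to 158 CPM of Dab1; replicate 3 was at 655 and 34.8 CPM.

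Fyn, at chr10:39369743-39565381, encodes a Src family kinase that phosphorylates DAB1. The sets of references did not overlap, at 153, 145 and 119 CPM (creErt2) and 195, 217 and 196 CPM (tdT), as was so for 24.6% of all genes. The first were lower than the second by -0.54 ± 0.16 (log2), with an adjusted p of 0.115 in edgeR. Math1Hoxa5-IRES-GFP, at 165, 152 and 139 CPM, was below all tdT references, a comparison in which 12.5% of all genes did not overlap. The change was -0.42 ± 0.16 within the set (adjusted p = 0.265) and -0.17 ± 0.18 against all references (adjusted p = 0.690, both edgeR). Hoxa5tdTomato, at 111, 137 and 117 CPM, overlapped the creErt2 references, at -0.19 ± 0.16 within the set.

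Crk, at chr11:75679194-75708428, encodes an adaptor that binds phosphorylated DAB1. It was at 136 ± 9.68 CPM in the references (SD, n = 6), at 96.3, 110 and 139 CPM in Hoxa5tdTomato and at 158, 182 and 105 CPM in Math1Hoxa5-IRES-GFP. All groups overlapped. The change was 0.13 ± 0.18 for Math1Hoxa5-IRES-GFP (95% interval -0.25 to 0.51, adjusted p = 0.762, edgeR) and -0.24 ± 0.18 for Hoxa5tdTomato, the latter as a description.

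Crkl, the paralog of Crk, lies at chr16:17451985-17487440. In set 1 it was 91.8, 64.0 and 75.4 CPM in the creErt2 references and 53.2, 40.9 and 54.3 CPM in Hoxa5tdTomato. In set 2 it was 145, 111 and 130 CPM in the tdT references and 100, 106 and 142 CPM in Math1Hoxa5-IRES-GFP. All 6 libraries of set 1 were below all 6 of set 2, and the references alone differed between the sets by -0.74 ± 0.21 (adjusted p = 0.107, edgeR). The reference sets did not overlap for 24.6% of all genes. Against all references Hoxa5tdTomato was at -1.06 ± 0.25, and against the references of its own set at -0.64 ± 0.21, both as a description.

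Between the conditions, Crkl was the only member past the threshold, 1 of 7 where 3.35% of all genes were called. It was lower in Hoxa5tdTomato than in Math1Hoxa5-IRES-GFP by -1.23 ± 0.28 on the log2 scale (adjusted p = 0.0340, edgeR), with no overlap of the libraries. For scale, 27.7% of all genes did not overlap there. With each condition set against its own references the difference was -0.49 ± 0.30 and the call was lost (adjusted p = 0.721, edgeR). Of 14732 genes 0 were called in that comparison, so this loss does not set Crkl apart. Without Math1Hoxa5-IRES-GFP replicate 3 the direct difference was -1.06 (adjusted p = 0.0677, edgeR). The call was also lost without Hoxa5tdTomato replicate 1, 2 or 3, with adjusted p-values of 0.137, 0.157 and 0.105 in edgeR.

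**Figure D4:**
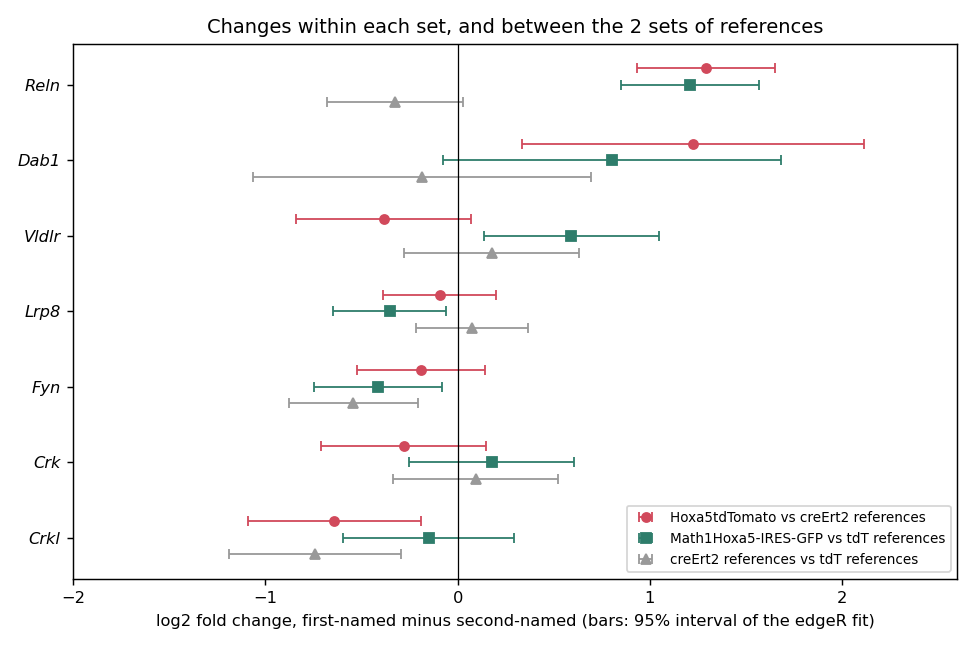
Log2 fold changes (horizontal axis) of the 7 genes within set 1 (circles), within set 2 (squares) and between the creErt2 and tdT references (triangles), with 95% intervals of the edgeR fit of 4 groups. Reln was at 1.29 and 1.21 within the sets, against -0.33 between the references, whereas Crkl was at -0.74 between the references.

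By level per length, Reln stood at different places in the order of the members. It was 6th of 7 in the references (17.6 ± 3.14 RPKM, SD, n = 6), 6th in the creErt2 and 5th in the tdT references, 2nd in Hoxa5tdTomato (38.3 ± 1.52 RPKM) and 1st in Math1Hoxa5-IRES-GFP (45.3 ± 10 RPKM, n = 3 each). Without replicate 3 it was again 1st in that group, at 51.0 RPKM, but in replicate 3 alone it was 4th, at 33.96 RPKM, below Lrp8, Fyn and Crkl. In that group it did not differ beyond the spread from Lrp8 (43.0 ± 0.875 RPKM), Fyn (41.2 ± 3.62 RPKM) or Crk (39.6 ± 10.5 RPKM). In the references Lrp8 and Fyn (46.3 ± 10.1 RPKM) overlapped in range, and Reln overlapped Vldlr (18.2 ± 4.33 RPKM) and, at its lower end, Dab1. In Hoxa5tdTomato Lrp8 stayed highest, with 54.3 ± 7.84 RPKM, and lay above Reln in all 3 libraries. This order in Hoxa5tdTomato is a description, since Reln was chosen for its level there.

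The other genes of the pathway were taken from 4 lists of 68 genes, all of which were tested: 9 further ligands and proteases of Reelin, 15 co-receptors and genes of receptor turnover, 10 kinases and genes of DAB1 turnover, and 34 effectors. In Math1Hoxa5-IRES-GFP 0 were higher and 2 lower than in the reference (1.84% of all genes called). In Hoxa5tdTomato 0 were higher and 2 lower (1.73%), and between the conditions 0 were higher and 4 lower in Hoxa5tdTomato (3.35%). The median log2 change of the 68 was 0.06, -0.10 and -0.15 in the same order, against a median of 0.00, 0.00 and 0.02 over all genes tested. For scale, 6.37% of all genes had every Math1Hoxa5-IRES-GFP library on one side of all references, and 14.1% had every Hoxa5tdTomato library so.

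Adamts2, of the list of ligands and proteases, encodes a metalloproteinase that cleaves Reelin. It was at 6.05, 8.50 and 6.57 CPM in the libraries labelled Math1Hoxa5-IRES-GFP and at 22.5 to 42.8 CPM in the references (median 29.6 CPM), with no overlap. It fell by 2.10 ± 0.34 on the log2 scale (adjusted p = 0.00286), and by 1.85 ± 0.34 within the set (adjusted p = 0.0147, both edgeR). Hoxa5tdTomato was at 16.0, 11.9 and 18.8 CPM, also below all references, at -0.96 ± 0.32 with an adjusted p of 0.145 (edgeR). The other 8 genes of this list did not pass in any comparison with the reference. Its highest gene per length was Spon1, an extracellular protein that binds ApoER2, at -0.90 ± 0.23 in Math1Hoxa5-IRES-GFP (adjusted p = 0.0559) and -0.82 ± 0.23 in Hoxa5tdTomato (adjusted p = 0.0864, both edgeR).

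Efnb2, which encodes ephrin-B2, a transmembrane co-receptor of Reelin, was at 26.1, 37.9 and 37.7 CPM in Math1Hoxa5-IRES-GFP. The references were at 65.1 to 138 CPM (median 95.1 CPM), above all of these. It fell by 1.47 ± 0.28 (adjusted p = 0.00985), and by 1.71 ± 0.28 within the set (adjusted p = 0.00586, both edgeR). In Hoxa5tdTomato it was at 37.0, 74.7 and 60.1 CPM, which overlapped the references (-0.71 ± 0.27, adjusted p = 0.202, edgeR). The difference of the within-set changes, 1.29 ± 0.38, did not pass (adjusted p = 0.522, edgeR), and 0 of 14732 genes did.

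Cdh2, which encodes N-cadherin, was at 260, 244 and 298 CPM in Hoxa5tdTomato and at 375 to 572 CPM in the references (median 450 CPM). It fell by 0.75 ± 0.15 (adjusted p = 0.0184) but did not pass within the set (-0.59 ± 0.14, adjusted p = 0.0940, both edgeR). In Math1Hoxa5-IRES-GFP it was at 315, 364 and 305 CPM, or -0.45 ± 0.15 (adjusted p = 0.133, edgeR), again below all references.

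Among the effectors, Map1b, a microtubule-associated protein, had the highest level. It was at 13010, 14550 and 15340 CPM in Hoxa5tdTomato and at 18080 to 30130 CPM in the references (median 23920 CPM). It fell by 0.74 ± 0.15 against all references (adjusted p = 0.0184) and by 0.46 ± 0.09 within the set (adjusted p = 0.0384, both edgeR), where 0.557% of all genes were called. The creErt2 references were themselves lower than the tdT references by -0.52 ± 0.09 (adjusted p = 0.0150, edgeR), and 1.34% of all genes were called between the sets of references. Math1Hoxa5-IRES-GFP was at 23210, 25520 and 28100 CPM, or 0.10 ± 0.14 (adjusted p = 0.776, edgeR).

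The 4 effectors lower in Hoxa5tdTomato than in Math1Hoxa5-IRES-GFP were Map1b (-0.84 ± 0.17, adjusted p = 0.0251), the kinase genes Gsk3b (-0.78 ± 0.17, adjusted p = 0.0299) and Gsk3a (-1.57 ± 0.38, adjusted p = 0.0409), and Pafah1b2, a subunit gene of the enzyme complex that binds LIS1 (-0.58 ± 0.15, adjusted p = 0.0461, all edgeR). None was called as a difference of the within-set changes, where the adjusted p-values in edgeR were 0.585, 0.585, 0.813 and 0.451. Since 0 of 14732 genes were called there, this does not set the 4 apart. Gsk3a also differed between the reference sets (-1.16 ± 0.25, adjusted p = 0.0341, edgeR). Without Math1Hoxa5-IRES-GFP replicate 3, 1 of the 4, Map1b, was called.

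No kinase or gene of DAB1 turnover was called in any of the 3 comparisons, with medians of -0.28, -0.01 and -0.10 for Hoxa5tdTomato against the reference, Math1Hoxa5-IRES-GFP against the reference and Hoxa5tdTomato against Math1Hoxa5-IRES-GFP. Stk25, the highest of them per length and a kinase that opposes DAB1 signalling, was at 0.28 ± 0.26 in Math1Hoxa5-IRES-GFP (adjusted p = 0.631, edgeR). Without Math1Hoxa5-IRES-GFP replicate 3, the lists had 4 called genes in Hoxa5tdTomato (Cdh2, Cdk5r2, Map1b and Spon1), with 4.86% of all genes called, and again Adamts2 and Efnb2 in Math1Hoxa5-IRES-GFP, with 2.24%.

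**Figure D5:**
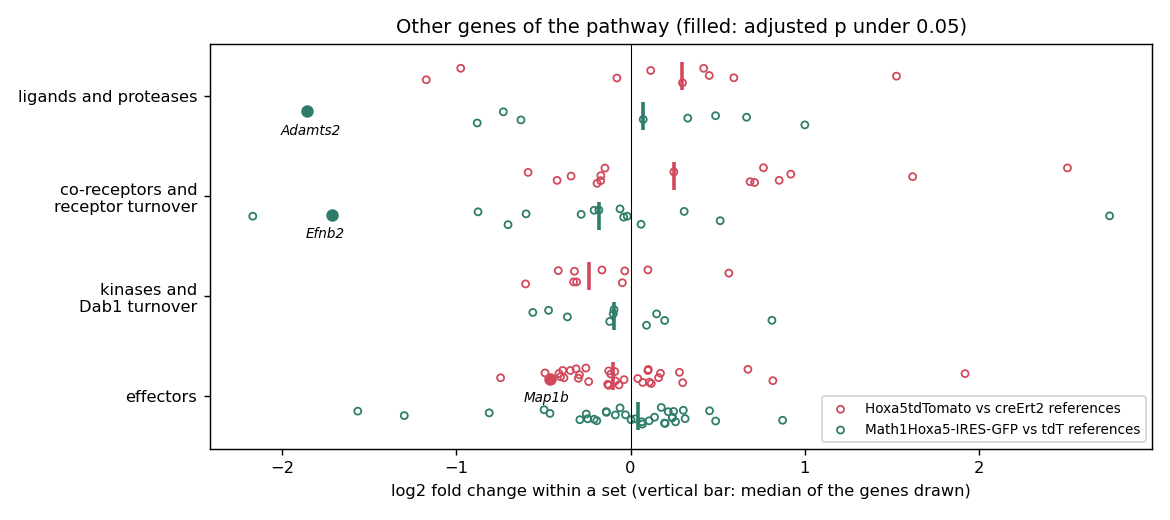
Log2 fold changes (horizontal axis) of the other pathway genes in their 4 lists, within set 1 (Hoxa5tdTomato) and within set 2 (Math1Hoxa5-IRES-GFP). Filled points passed an adjusted p of 0.05 and bars are medians. Adamts2 at -1.85, Efnb2 at -1.71 and Map1b at -0.46 were the genes called.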

How the data were processed

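The authors deposited raw read counts per gene (Entrez identifier) for 12 libraries in 1 table, beside each gene's length in bases. Per the labels' protocols, 2000 neurons per library were sorted, RNA of 1000 cell equivalents was amplified and 1 ng of cDNA was made into a library. Per the submitters' processing notes, bases were called with bcl2fastq 1.8.4 and the build was mm10. The aligner, the counter and the use of strand were not given in the sources used here.

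CPM with TMM factors and RPKM were computed from these counts. Genes were kept with filterByExpr at a minimum count of 10, and tested by quasi-likelihood F tests in edgeR 4.0.16 (limma 3.58.1, R 4.3.3) on 1 mean per label group, with Benjamini-Hochberg adjustment over 14732 genes and a threshold of 0.05. SEs are the log2 change over the square root of F. A fit of 4 groups by column name gave the values within a set, with factors and dispersion still taken from every library. The script was tested on simulated data. DESeq2 1.42.0, other scalings, no filter, thinned counts, a replicate block and leaving out each library were alternatives. The block used the numbers in the column names. The fit of 4 groups, the pathway lists, the correlations, the order of levels and the Hoxa5 change without Math1Hoxa5-IRES-GFP replicate 3 were added after the data were seen.

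The members and the lists were chosen with earlier results of these data known, and the result of a comparison may have been known even where a p-value is given. Named genes were the 7 members, pathway genes past the threshold or else the highest of a list, the 5 genes most and 3 least correlated with Reln, and the highest markers of a list or those at 0. Barhl1, Slc17a7 and Gad1 are named as defining markers, and Cdk5r2 for its call without 1 library. A further gene of the pathway lists is not reported here. The 95% intervals come from the edgeR fit and cover the spread between these libraries, which may be technical. Floors and counts of 0 cover counting error only, since amplified reads are not independent molecules. RefSeq promoter windows matched all 7 members. No pair of libraries in a group agreed within sampling noise.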

Additional observations from a re-analysis of the deposited data

Results flagged for a closer look

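Vldlr in creErt2 reference 1 was at 221 CPM, a single high library among the 6 references, whose next highest was at 154 CPM and lowest at 125 CPM. The gap made up 0.702 of their range, over Dixon's 95% critical value for 6 values. Chance alone passes this in some groups, and 7 genes were examined. In this library Lrp8 was at 552 CPM and Reln at 304 CPM, inside the range of the other references, and no cause was tested.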

How the results depend on the processing

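In Math1Hoxa5-IRES-GFP against the reference, Reln kept its direction and its call in 21 of 21 alternatives, at 1.196 to 1.53 (adjusted p up to 0.00440). Its adjusted p there was 1.94e-05 to 0.00153 over the fits that leave out 1 library. The references of these fits also served the comparison by which Reln was chosen. Adamts2 and Efnb2 were called in 21 of 21 alternatives in Math1Hoxa5-IRES-GFP, at up to 0.0371 and 0.0335. Crkl between the conditions was called in 12 of 21 and Cdh2 and Map1b in Hoxa5tdTomato in 16 and 18 of 21.

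In Hoxa5tdTomato against the reference, the fit of the label groups put 2 members past the threshold (Reln and Crkl). Reln was chosen for this difference, so its call here and in the alternatives follows from that choice and lends it no support. That fit called 255 of all genes (1.73%). Besides Reln, no member passed with DESeq2 size factors, with library size only or in the fit of 4 groups. DESeq2 called 3 members (Reln, Dab1 and Crkl), and the fits that leave out a library called 1 to 3. All genes called there were 231 with DESeq2 size factors, 240 with library size only and 671 with DESeq2. They were 82 (0.557%) in the fit of 4 groups and 35 to 728 over the fits that leave out a library. In Math1Hoxa5-IRES-GFP against the reference, members were 2 (Reln and Dab1) in the fit of 4 groups without replicate 3, where 365 of all genes were called. They were 1 to 2 over the fits that leave out a library. All genes were 983 with DESeq2, 127 in the fit of 4 groups and 190 to 575 without a library. Between the conditions, members were 0 with library size only and in the fits of 4 groups with and without that replicate, 2 with DESeq2 (Vldlr and Crkl) and 0 to 2 without a library. All genes there were 148 with library size only, 1615 with DESeq2, 0 in the fits of 4 groups with and without that replicate, and 0 to 1157 without a library; the cause was not tested. The fewest, 0, came without Hoxa5tdTomato replicate 1, and without replicate 2 or replicate 3 of that group 1 gene was called in each fit. The most came without Math1Hoxa5-IRES-GFP replicate 1.

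With library size only, the median of all genes moved to 0.16, -0.13 and 0.30 in the 3 comparisons, and the share of higher calls from 48.6% to 70.8%, from 70.5% to 52.8% and from 27.4% to 78.4%. The mean of Reln in Hoxa5tdTomato was then 821 CPM in place of 739 CPM.

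These uncalled values changed sign. Lrp8 in Hoxa5tdTomato was at 0.10 with library size only and between -0.18 and 0.030 over the fits that leave out a library, positive only without Hoxa5tdTomato replicate 1. In Math1Hoxa5-IRES-GFP, Crk was between -0.038 and 0.33 over the fits that leave out a library, negative only without replicate 2, and Crkl was between -0.00045 (without replicate 3) and 0.30 over such fits, -0.15 in the fit of 4 groups and -0.32 there without replicate 3. Between the conditions, Reln was at 0.031 with library size only and 0.085 in the fit of 4 groups, Fyn at 0.22 in that fit and 0.16 there without replicate 3, and Dab1 between -0.19 (without replicate 3) and 0.57 over the fits that leave out a library and at -0.0053 in the fit of 4 groups without it. Depth limits genes near the floor of 3 counts, 0.107 to 0.274 CPM per library, and no member was near it.

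The replicate numbers of the columns did not pair the libraries: same-numbered libraries of a set had correlations of their deviations of 0.0232, 0.0152 and 0.0264 in set 1 and -0.0281, 0.0408 and 0.0493 in set 2. With the replicate block, members called were 1, 1 and 0 in the 3 comparisons with 3 groups as with 4, and all genes between the conditions were 114 with 3 groups. With the replicate block and 4 groups, all genes called were 79, 89 and 0, Crkl in Math1Hoxa5-IRES-GFP was at -0.15, and between the conditions Reln was at 0.10 and Fyn at 0.23.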

Other observations

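Of all 14732 genes tested, those whose log2 CPM was most like that of Reln over the 12 libraries were Tenm1, a teneurin of cell adhesion (r = 0.965), Rnf152, a ubiquitin ligase (0.959), Lin7a, a PDZ scaffold protein (0.943), Syce2, a protein of the meiotic synaptonemal complex (0.943), and Klf6, a zinc finger transcription factor (0.940). The 3 with the lowest r were Wscd1 (-0.951), Btbd17 (-0.942) and Tmem178 (-0.931). The libraries share groups, sets and depth, and the genes were picked from all for this value, so no p is given. Once the mean of each group was removed, the r with Reln was 0.726 for Tenm1, 0.803 for Rnf152, 0.588 for Lin7a, 0.570 for Syce2 and 0.583 for Klf6, against 0.897 for Dab1. Without Math1Hoxa5-IRES-GFP replicate 3 these 5 ran from 0.209 to 0.693, against 0.749 for Dab1. The 5 were picked for r over all libraries, and the r with group means removed was not ranked over all genes. These values therefore do not place Dab1 among all genes. Within groups the r of Crkl with Reln was -0.715, and -0.538 without that replicate, while over all libraries it was -0.225.

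The level of Fyn relative to Dab1, as a ratio of RPKM, was 1.31, 1.66 and 1.74 in Hoxa5tdTomato and 4.10, 4.19 and 4.14 in the creErt2 references. It was 1.75, 1.802 and 6.65 in Math1Hoxa5-IRES-GFP and 8.76, 3.86 and 5.45 in the tdT references. Replicate 3 of Math1Hoxa5-IRES-GFP was again the library that stood apart.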
